A study of Homo sapiens with 8 samples.

Results

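The proteasome is the protease that degrades most ubiquitin-tagged proteins in human cells, and the genes described here encode its parts. A list of 38 genes was taken by name: the constitutive alpha and beta subunits of the 20S core, the ATPase and non-ATPase genes of the 19S regulatory particle with the chaperones of its assembly that share the PSMD naming, and the PSME activators. Of these, 33 had a probe set annotated to them alone, and all 33 passed the filter on low signal, among 13584 genes tested. PSMA6, PSMC5, PSMD7, PSMD13 and PSME2 had no such probe set and were not analysed here.

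RNA was measured in A549 cells, a human lung adenocarcinoma line, on 8 one-colour expression arrays that fall into 4 groups of 2. Cells received SRC-1 siRNA or control siRNA, and each was kept with glucose or without it. SRC-1, encoded by NCOA1, is a transcriptional coactivator of nuclear receptors. All groups shared transfection with an siRNA, 36 hours in medium with 10% dialyzed serum, and then DMEM that did or did not contain glucose, again with 10% dialyzed serum. The labels do not state how long that last step ran. They name the arrays within each group as biological replicates of 1 cell line and say nothing of separate cultures, so that p-values weigh differences against the array-to-array spread. With 2 arrays against 2, a permutation test could not go below p = 0.333, so each gene was tested with limma's moderated test over all 8 arrays, with Benjamini-Hochberg adjustment over 13584 genes and a threshold of 0.05. A gene past that threshold is called.

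The NCOA1 probe set read 5.47, 5.18, 5.22 and 5.09 on the SRC-1 siRNA arrays, against 8.60, 8.42, 8.34 and 8.24 on the control siRNA arrays, so the targeted transcript was lower where the labels say it should be. The log2 difference for NCOA1 was -3.16 ± 0.08 (SE), averaged over both media. The 5 epithelial markers tested read 8.09 to 14.3 in mean log2 signal, with the keratin genes KRT8 and KRT18 at 12.99 and 14.3. The surfactant genes SFTPC and SFTPB of alveolar type II cells read 7.64 and 5.97. Some of these markers moved with glucose: KRT8, KRT19 and EPCAM rose by 0.28, 0.52 and 0.16, SFTPB rose by 0.21 and SFTPC fell by 0.21, and their part in the results was not tested. The 6 tested markers of leukocytes, endothelial cells and fibroblasts read between 5.01 and 7.88. Array medians lay between 4.97 and 5.01, and replicates correlated at 0.997 to 0.998. The GAPDH 3′ minus 5′ signal, a sign of RNA integrity, was 0.154, 0.139, 0.163 and 0.172 log2 units with glucose, against 0.126, 0.131, 0.123 and 0.141 without. For ACTB it was 0.615, 0.513, 0.643 and 0.521 with glucose, against 0.450, 0.535, 0.414 and 0.520 without. In each run the 2 SRC-1 siRNA arrays come first. Within each siRNA, GAPDH read higher on both arrays with glucose, and it overlapped only across siRNAs (0.139 against 0.141). ACTB overlapped with SRC-1 siRNA but not with control siRNA, where the nearest arrays read 0.521 and 0.520. The part of RNA integrity in the results was not tested. In RNA from a whole culture, a change in which cells were present and a change in RNA per cell cannot be told apart.

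The 20S core is a barrel of outer alpha rings, which gate entry, around inner beta rings, which carry the protease sites. The 19S regulatory particle caps the barrel. Its base holds a ring of ATPases that unfold substrates and open the gate, and its lid removes ubiquitin. The PSME activators cap the core instead of the 19S particle and work without ATP. In mammalian cells the transcription factor encoded by NFE2L1 raises the transcription of proteasome genes when proteasome activity falls short.

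On the brightest probe set of each gene, glucose moved the proteasome genes by small amounts and in both directions, with 9 of the 12 rises among the 19S genes. Several dimmer sets differed by more, as described with the probe sets. Averaged over both siRNAs, 12 of 33 members rose (36.4%, against 29.5% of all genes tested) and 7 fell (21.2%, against 26.2% of all genes). These shares lie near those of all genes, so in this fit the number of calls does not set the proteasome apart. The counts of each subgroup below stand against the same shares of all genes, and no subgroup was tested as a set. Of the 17 tested genes of the 19S particle and its assembly, 9 rose and 3 fell, and their median log2 difference was 0.20. The falls include PSMD9, of which a further set was called higher. A further set of PSMD4, which was not called on its brightest set, was called lower. Without the assembly chaperones PSMD5, PSMD9 and PSMD10, a split made after the values were seen, 9 of 14 rose and 2 fell, with a median of 0.31. Of the 13 tested genes of the 20S core, 3 rose and 2 fell, with a median of 0.06. Dimmer sets of PSMA2 and PSMB2 were called higher, at 0.85 and 0.57, and a dimmer set of PSMA5 lower, at -0.47. Among the 3 tested activators, PSME1 and PSME3 fell on their brightest probe set and none rose. Further sets of PSME3 were called higher, as was a further set of PSME4, which was not called on its brightest set. The difference between the particles was not tested.

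The sizes given here are those of the brightest probe set of each gene. In the members these sets lay at percentiles 73.4 to 98.3 of mean signal over the genes tested. The part of signal level in the sizes was not tested. The median absolute log2 difference was 0.15 over the members and 0.20 over all genes tested. PSMD1 alone, or 3.03% of the members, exceeded 1.5-fold on that set, against 14.5% of all genes. Among the 25 further probe sets of the members, 5 exceeded 1.5-fold, and the matching share of all probe sets is not given here. Those of PSMA2, PSMD1, PSMD11 and PSMD12 were called higher, while that of PSME4 stood at -0.61 without a call. Of the 25 sets, 19 differed more than the brightest set of their gene. The median signed difference was 0.08 in the members and close to 0 (-0.000351) in all genes. The standard error of an averaged difference ranged from 0.0425 to 0.064 log2 units over the members. In 17 members (51.5%) all 4 arrays with glucose read above all 4 without, which held for 28.6% of all genes. In 9 members (27.3%) all 4 read below, against 25.3% of all genes, and in 7 the arrays overlapped.

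**Figure D1:**
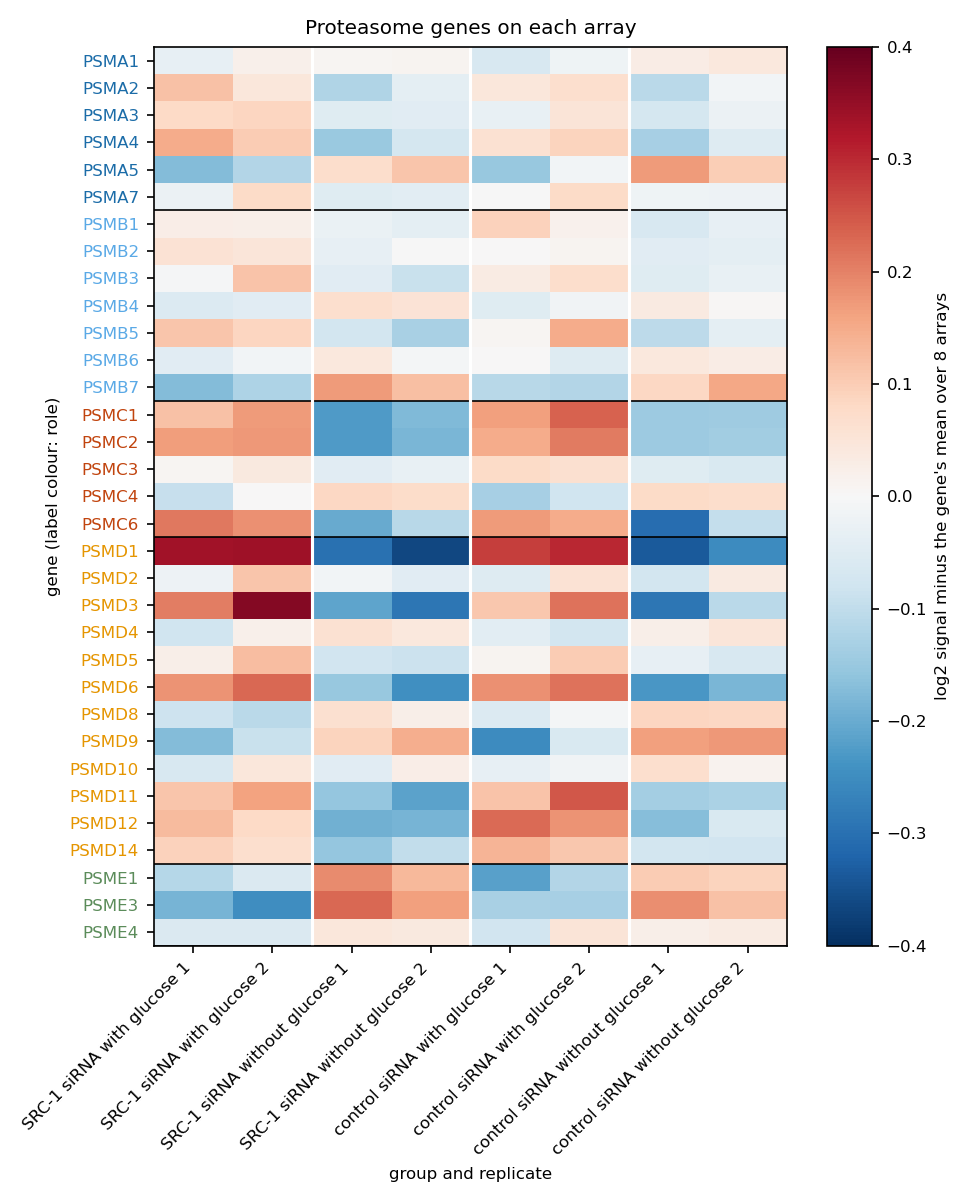
Log2 signal of each of the 33 proteasome genes on each of the 8 arrays, as the difference from the gene's own mean (red above, blue below); rows are genes ordered by role, columns are arrays. PSMD1 and PSMD3 show the widest split, and the 2 arrays of a group are alike in colour for most genes.

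The upstream DNA of the 3 members whose brightest probe sets differed most between glucose conditions, PSMD1, PSMD3 and PSMD6, is shown because they gave the largest of these differences. Each line gives the 250 bases before the annotated start, 5′ to 3′, from RefSeq on GRCh38.p14. Capitals mark matches to a CCAAT box (CCAAT) or to the core of an antioxidant response element (TGANNNNGC), the kind of site that NFE2L1 and NFE2L2 bind, on either strand.
PSMD1 promoter, chr2:231056617-231056866, plus strand: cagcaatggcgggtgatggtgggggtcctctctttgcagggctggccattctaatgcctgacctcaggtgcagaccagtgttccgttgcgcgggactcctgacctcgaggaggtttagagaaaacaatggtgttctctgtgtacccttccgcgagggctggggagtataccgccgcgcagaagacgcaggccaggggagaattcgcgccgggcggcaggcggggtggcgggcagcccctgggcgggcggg
PSMD3 promoter, chr17:39980557-39980806, plus strand: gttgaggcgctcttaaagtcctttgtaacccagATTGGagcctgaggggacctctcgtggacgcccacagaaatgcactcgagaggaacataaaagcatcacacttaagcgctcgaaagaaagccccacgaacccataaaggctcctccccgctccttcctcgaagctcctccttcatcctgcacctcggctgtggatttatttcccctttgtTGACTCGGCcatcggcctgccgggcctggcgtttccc
PSMD6 promoter, chr3:64023495-64023744, minus strand: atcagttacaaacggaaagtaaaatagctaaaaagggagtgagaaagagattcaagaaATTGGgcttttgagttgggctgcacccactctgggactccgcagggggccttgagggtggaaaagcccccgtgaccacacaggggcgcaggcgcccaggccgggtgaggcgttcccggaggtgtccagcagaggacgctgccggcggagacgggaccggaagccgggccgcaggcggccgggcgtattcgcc

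PSMD1 held neither motif in this window, PSMD6 held a CCAAT box, and PSMD3 held both. The entries matched 28 of the 33 members. A gene with several annotated starts counted as holding a motif if any of its windows did. The number of starts was not matched between members and all genes. The loose antioxidant response pattern was present in 16 of 28 members (57.1%), against 40.3% of 27305 genes with a promoter entry. By the direction of the brightest probe set, it was present in 5 of 12 members that rose, 5 of 6 that fell and 6 of 10 not called. Those that fell include PSMD9 and PSME3, whose probe sets were called in opposite directions. The CCAAT box was present in 14 of 28 members, against 37.0% of all genes, and in 7 of 12, 3 of 6 and 4 of 10 of the same groups. The sequence TGATGCAA, a core recognised by the amino acid response factor ATF4 with a partner, was found in 0 of 28 members and in 0.967% of all genes. In PSMA3 and PSMA5 a match to the loose antioxidant response pattern and a CCAAT box overlap. A match to these letters is a description of the sequence and not a measured binding site.

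The alpha subunits form the outer rings of the core and control its gate. Of 6 tested, 2 rose and 1 fell, with a median log2 difference of 0.08. In what follows, each run of 4 values gives the 2 SRC-1 siRNA arrays first and then the 2 control siRNA arrays, in log2 signal. PSMA4 read 12.54, 12.49, 12.45 and 12.48 with glucose, against 12.24, 12.32, 12.26 and 12.34 without. Every array with glucose lay above every array without, and the difference was 0.20 ± 0.05 (SE, adjusted p = 0.00628). PSMA2 read 12.45, 12.38, 12.38 and 12.40 with glucose, against 12.21, 12.29, 12.22 and 12.32 without, a difference of 0.14 ± 0.05 (SE, adjusted p = 0.040). These groups did not overlap either, but the gap between them was only a few hundredths of a unit. PSMA5 went the other way. It read 11.10, 11.16, 11.12 and 11.27 with glucose, against 11.35, 11.39, 11.45 and 11.37 without, and fell by 0.23 ± 0.05 (SE, adjusted p = 0.00523). PSMA1, PSMA3 and PSMA7 were not called, at -0.05, 0.09 and 0.06.

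The beta subunits include the catalytic ones, PSMB5 with chymotrypsin-like, PSMB6 with caspase-like and PSMB7 with trypsin-like activity. The 3 catalytic genes gave 3 different outcomes. PSMB7 read 12.14, 12.19, 12.21 and 12.20 with glucose, against 12.49, 12.44, 12.40 and 12.47 without, and fell by 0.26 ± 0.05 (SE, adjusted p = 0.00114). PSMB5 read 12.22, 12.19, 12.11 and 12.25 with glucose, against 12.03, 11.98, 12.00 and 12.07 without. PSMB5 rose by 0.17 ± 0.05 (SE, adjusted p = 0.0178), and in both genes the groups were fully separated. PSMB6 stood at -0.05 and was not called. The 4 non-catalytic genes PSMB1, PSMB2, PSMB3 and PSMB4 were not called, at 0.08, 0.06, 0.11 and -0.08.

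Of the 5 tested ATPases of the 19S base, 3 rose, 1 fell and 1 was not called. PSMC6 read 11.98, 11.95, 11.94 and 11.92 with glucose, against 11.57, 11.66, 11.47 and 11.67 without. PSMC2 read 12.33, 12.33, 12.31 and 12.37 with glucose, against 11.94, 11.98, 12.02 and 12.02 without. PSMC1 read 11.70, 11.75, 11.75 and 11.82 with glucose, against 11.36, 11.41, 11.44 and 11.44 without. All 3 genes encode subunits of the hexameric ring that unfolds substrates. Their log2 differences were 0.36 ± 0.06, 0.35 ± 0.04 and 0.34 ± 0.05 (SE), or 1.28-fold, 1.27-fold and 1.27-fold. The adjusted p-values were 0.000775 for PSMC6, 0.000176 for PSMC2 and 0.000233 for PSMC1. PSMC4, another subunit of the same ring, read 11.85, 11.95, 11.81 and 11.87 with glucose, against 12.03, 12.02, 12.02 and 12.02 without, and fell by 0.15 ± 0.05 (SE, adjusted p = 0.0209). PSMC3 was not called, at 0.09. The median over the 5 tested ATPases was 0.34.

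Among the 12 tested non-ATPase genes, 6 rose and 2 fell, with a median of 0.16. PSMD1, the large scaffold of the base to which the ubiquitin receptor ADRM1 attaches, read 11.47, 11.47, 11.41 and 11.43 with glucose, against 10.83, 10.77, 10.80 and 10.88 without. On the brightest probe sets this was the largest averaged difference of any member, 0.62 ± 0.05 (SE, adjusted p = 8.07e-06), or 1.54-fold. PSMD3, a structural subunit of the lid, read 9.55, 9.71, 9.45 and 9.56 with glucose, against 9.14, 9.06, 9.06 and 9.24 without, a difference of 0.45 ± 0.06 (SE, adjusted p = 0.000364). PSMD6, also of the lid, read 11.17, 11.22, 11.17 and 11.21 with glucose, against 10.84, 10.75, 10.76 and 10.81 without, a difference of 0.41 ± 0.05 (SE, adjusted p = 0.000105). In all 3 the lowest array with glucose lay at least 0.2 log2 units above the highest array without.

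The other lid genes moved the same way with 1 exception. PSMD11 and PSMD12, further structural subunits, rose by 0.32 and 0.31, and PSMD14, the lid's deubiquitinase, rose by 0.20. PSMD8 read 11.86, 11.83, 11.89 and 11.93 with glucose, against 12.01, 11.97, 12.03 and 12.02 without, and fell by 0.13 ± 0.04 (SE, adjusted p = 0.034). Of the 6 lid genes tested among the members, 5 rose and 1 fell, where 29.5% of all genes rose and 26.2% fell. Their median was 0.31. This grouping by textbook position was made after the values were seen. It leaves out SEM1, a small lid subunit outside the member list, which is given with the further lists. The remaining base genes PSMD2, a docking site for ubiquitin-like domains, and PSMD4, a ubiquitin receptor, were not called on their brightest sets, at 0.05 and -0.09. A further set of PSMD4 was called lower, as described with the probe sets.

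PSMD5, PSMD9 and PSMD10 encode chaperones that help assemble the base and leave before the particle is finished. PSMD9 read 10.86, 10.94, 10.78 and 10.97 with glucose, against 11.12, 11.18, 11.20 and 11.21 without, and fell by 0.29 ± 0.06 (SE, adjusted p = 0.0023), although a dimmer probe set of PSMD9 moved the other way, as described with the probe sets. PSMD10 stood at -0.03 and was not called. PSMD5 stood at 0.13, with an adjusted p of 0.0501 and all 4 arrays with glucose above the 4 without.

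Of the activators, PSME1 fell on its single probe set, while the probe sets of PSME3 disagree, as described with the probe sets. PSME1, a subunit of the interferon-inducible cap that favours antigen peptides, read 11.12, 11.17, 11.01 and 11.12 with glucose, against 11.42, 11.36, 11.33 and 11.32 without, and fell by 0.25 ± 0.05 (SE, adjusted p = 0.00185). PSME3, which forms the nuclear cap, read 10.10, 10.04, 10.16 and 10.16 with glucose, against 10.52, 10.45, 10.47 and 10.41 without, and fell by 0.35 ± 0.05 (SE, adjusted p = 0.000242) on its brightest probe set. PSME4, a large single-chain nuclear activator, was not called on its brightest probe set, at -0.07. Over the 14 members not called on their brightest sets, the differences of those sets ran from -0.09 to 0.13. Their 95% intervals lay between -0.19 and 0.24. Further sets of PSMB2, PSMD4 and PSME4 were called beyond that range of differences, as described with the probe sets.

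The response was measured under each siRNA on arrays that the 2 estimates do not share. Both came from 1 fit with 1 shared estimate of each gene's spread, so the 2 sets of calls are not independent. With SRC-1 siRNA, 10 of 33 members rose with glucose (30.3%, against 24.6% of all genes) and 5 fell (15.2%, against 20% of all genes). With control siRNA, 9 rose (27.3%, against 23.6%) and 5 fell (15.2%, against 21.6%). Both siRNAs called the same 9 members higher and the same 5 lower, and PSMA4 was called with SRC-1 siRNA alone, at 0.23, against 0.17 with control siRNA (adjusted p = 0.0728). Without the first array of SRC-1 siRNA without glucose, 9 members were called with SRC-1 siRNA in place of 15. With control siRNA, 9 in place of 14 were called without its first array with glucose, and 8 without its first array without glucose. On their brightest sets, PSMA2, PSMB5, PSMC4 and PSMD8 passed in the average but with neither siRNA by itself. The dimmer PSMA2 set 201316_at was called with each, at 0.84 with SRC-1 siRNA and 0.85 with control siRNA. The 4 calls of the brightest sets hung on single arrays. PSMA2 stayed called only without the second array of SRC-1 siRNA with glucose or of control siRNA without glucose, and otherwise reached an adjusted p of up to 0.128. PSMC4 stayed called only without the second array with glucose of either siRNA (adjusted p up to 0.0685 otherwise), and PSMD8 only without that of control siRNA (up to 0.101). PSMB5 lost its call (adjusted p up to 0.0613) without the second array of SRC-1 siRNA without glucose, the second of control siRNA with glucose or the first of control siRNA without glucose. All 33 members had the same sign under both siRNAs, although PSMD10 lay at -0.000208 with SRC-1 siRNA, in effect at 0. Across these 33 genes, which are not independent, Pearson's r was 0.975 and Spearman's rho 0.97. The matching counts of shared calls and signs, and the matching correlations, are not given here for all genes.

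**Figure D2:**
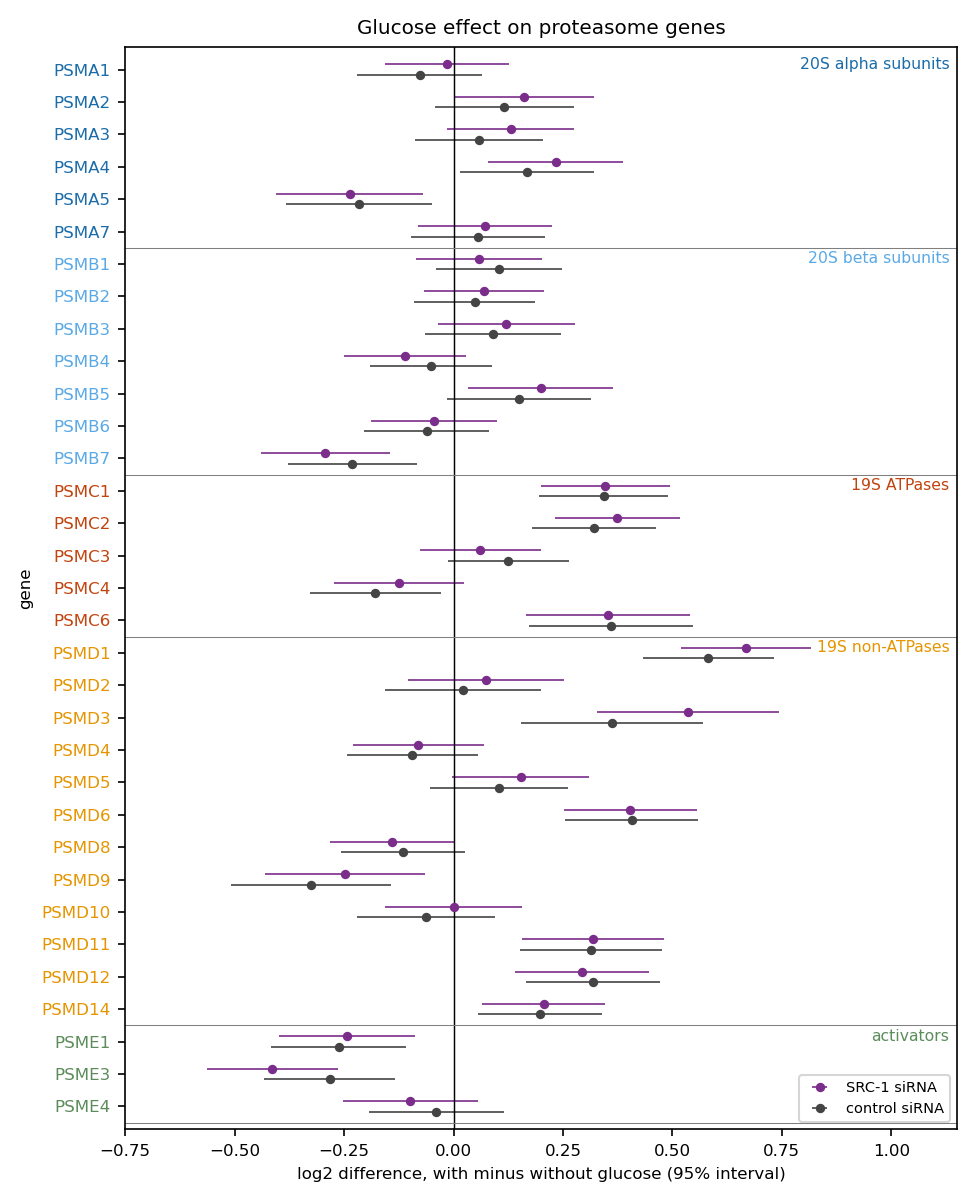
Log2 difference, with minus without glucose, of each proteasome gene with its 95% interval, for SRC-1 siRNA (purple) and control siRNA (grey), grouped by role. PSMD1 lies at 0.67 with SRC-1 siRNA and 0.58 with control siRNA, and every gene has the same sign under both siRNAs.

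Many proteasome genes carry more than 1 probe set on this array, and the values above are those of the brightest. The members had 65 probe sets, of which 58 passed the filter. In a fit of all probe sets, 21 of the 58 rose and 8 fell, against 25.5% and 23.1% of all 24655 probe sets that passed. In that fit the brightest sets of PSMA2, PSMB5, PSMC4 and PSMD8 were no longer called. The 25 further sets belonged to 17 members, and 19 had the sign of the brightest set of their gene.

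For 3 genes that rose, a dimmer set differed from the brightest by more than 0.5 log2 units in the same direction. The dimmer PSMD11 probe set 208776_at read 7.94, 8.05, 8.35 and 7.99 with glucose, against 6.74, 6.71, 6.64 and 6.81 without. Its difference was 1.36 ± 0.09 (SE), where the brightest set gave 0.32. For PSMD12 the dimmer set 202353_s_at read 10.04, 9.90, 10.03 and 10.05 with glucose, against 9.07, 9.00, 9.00 and 9.16 without, a difference of 0.95 where the brightest set gave 0.31. For PSMA2 the dimmer set 201316_at read 10.07, 10.10, 10.06 and 9.99 with glucose, against 9.24, 9.24, 9.15 and 9.19 without, a difference of 0.85 where the brightest set gave 0.14. PSMB2, not called on its brightest set, had a dim set (238425_at) at 0.57. The 2 sets of PSMD1 gave 0.62 each. The size of the rise in PSMD11, PSMD12 and PSMA2 thus depended on the probe set, while its direction was the same.

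In PSMD9 and PSME3 the probe sets were called in opposite directions, so the direction of these 2 genes is not settled by these arrays. The second PSMD9 set (209334_s_at) read 7.02, 6.91, 7.20 and 6.99 with glucose, against 6.85, 6.57, 6.46 and 6.70 without, a difference of 0.39 (adjusted p = 0.00976). For PSME3, the sets 200987_x_at and 209853_s_at gave -0.35 and -0.36. The sets 209852_x_at and 200988_s_at gave 0.32 and 0.50, with adjusted p-values of 0.00191 and 0.000182. Which transcripts these sets detect was not tested. PSME4 had 1 called set at 0.25 (212222_at), beside the brightest set at -0.07 and a dim set at -0.61 that was not called (212220_at). In PSMD4 the set 200882_s_at was called lower, at -0.21 (limma adjusted p = 0.0182). Its brightest set at -0.09 and the set 210460_s_at at -0.12 were not called.

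**Figure D3:**
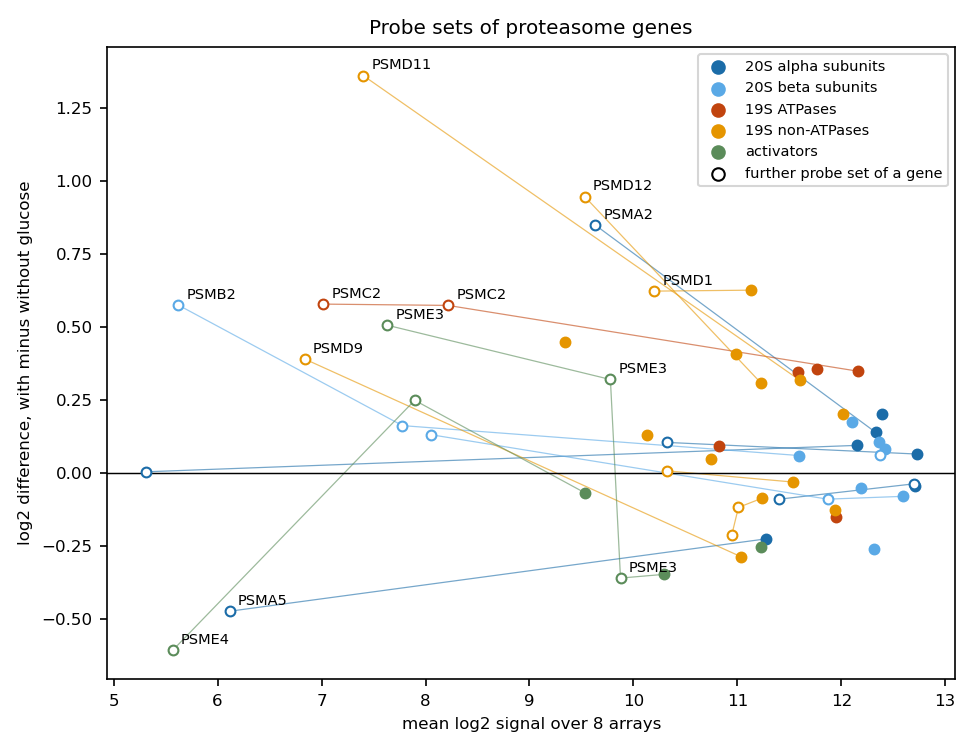
Log2 difference, with minus without glucose and averaged over siRNAs, against mean log2 signal for the 58 probe sets of proteasome genes that passed the filter; filled points are the brightest set of a gene, open points its further sets, and lines join sets of 1 gene. PSMD11, PSMD12 and PSMA2 have dimmer sets far above their brightest one, and PSMD9 and PSME3 have sets on both sides of 0.

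On their brightest probe sets, SRC-1 siRNA left the proteasome genes within the spread between arrays. With glucose, 0 of 33 members were called between SRC-1 siRNA and control siRNA, where limma called 0.00736% of all genes (1 gene). Without glucose, 0 of 33 were called, against 0.0221% of all genes, and averaged over media 0 of 33, against 0.0294%. No member's brightest set reached an unadjusted p under 0.05 in any of the 3, where 5.75%, 3.19% and 4.96% of all genes did. Averaged over media, the log2 differences of these brightest sets ran from -0.09 to 0.07, and their 95% intervals lay between -0.19 and 0.18. These intervals leave room for changes of that size, and do not show that the genes were equal. The dimmer PSMA5 set 230300_at differed by 0.20 averaged over media (95% interval 0.05 to 0.35). Its unadjusted limma p was 0.0163, and its adjusted p in a fit of all probe sets was 0.945.

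The members with the smallest p-values on their brightest sets illustrate the scale. PSMD12 averaged 11.33 ± 0.03 with SRC-1 siRNA and 11.43 ± 0.03 with control siRNA in the presence of glucose (SD, n = 2 arrays each, limma adjusted p = 0.951). In the absence of glucose it averaged 11.04 ± 0.01 with SRC-1 siRNA and 11.11 ± 0.08 with control siRNA. The averaged difference for PSMD12 was -0.09, with a 95% interval from -0.19 to 0.02 and an unadjusted limma p of 0.108. PSME1 differed by 0.07 (95% interval -0.04 to 0.18) and PSMC1 by -0.06 (-0.16 to 0.05) in the same average. With glucose, PSMD3 differed by 0.12 (-0.09 to 0.33) and PSME3 by -0.09 (-0.24 to 0.06). Without glucose, PSMC2 differed by -0.06 (-0.20 to 0.08). Across the 33 genes, the SRC-1 siRNA differences in the 2 media correlated at r = 0.159.

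The interaction asks whether the glucose response itself differed between the siRNAs. No member was called, and none of the 13584 genes was (0%). At an unadjusted p under 0.05, limma found 0 members on their brightest sets, and 3.42% of all genes. The 3 members with the smallest p were PSME3, PSMD3 and PSMD1. PSME3 differed by -0.41 with SRC-1 siRNA and -0.28 with control siRNA, an interaction of -0.13 (95% interval -0.34 to 0.08). PSMD3 gave 0.54 with SRC-1 siRNA and 0.36 with control siRNA, an interaction of 0.17 (-0.12 to 0.47). PSMD1 gave 0.67 with SRC-1 siRNA and 0.58 with control siRNA, an interaction of 0.09 (-0.12 to 0.30). Over all members the intervals lay between -0.34 and 0.47.

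**Figure D4:**
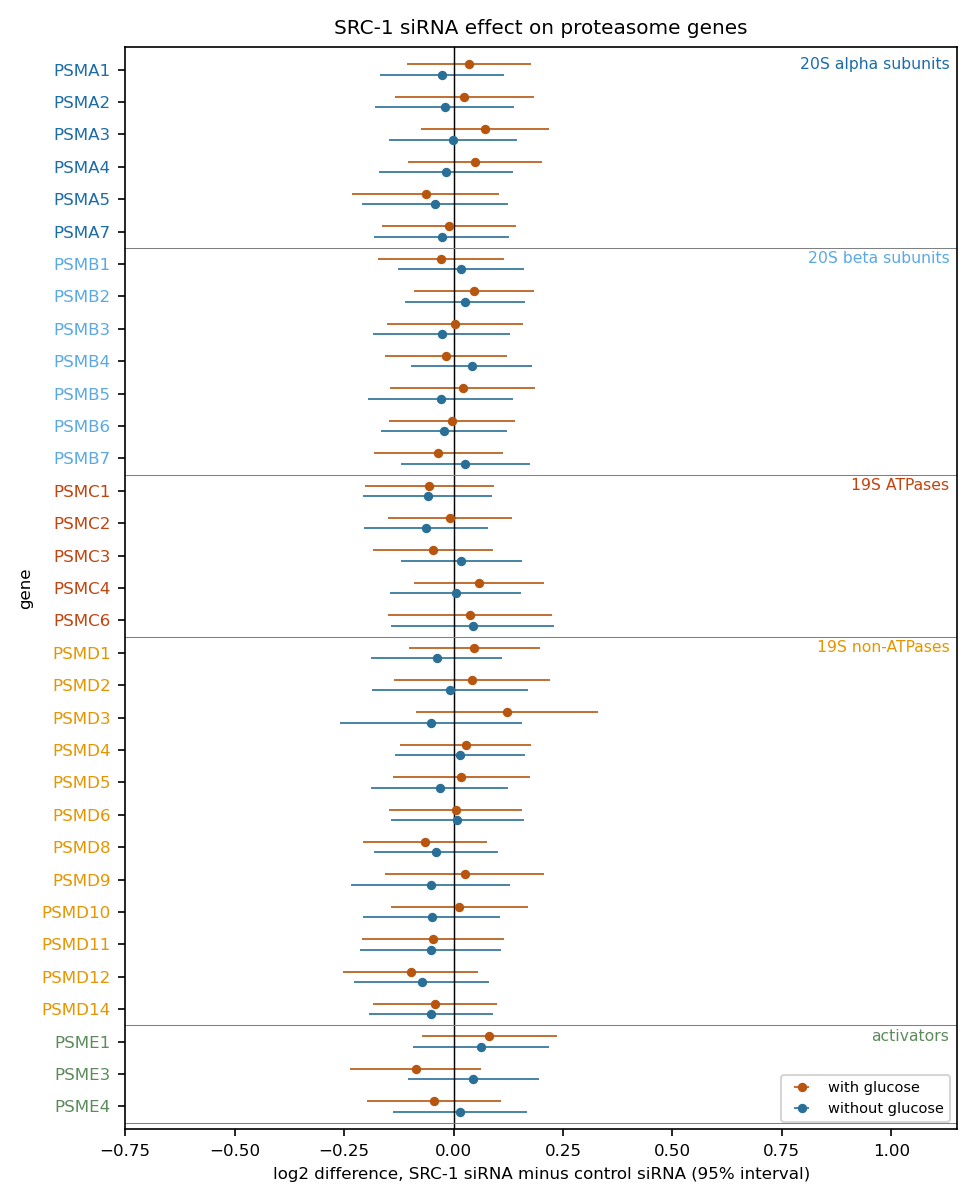
Log2 difference, SRC-1 siRNA minus control siRNA, of each proteasome gene with its 95% interval, with glucose (orange) and without glucose (blue), on the same axis range as the plot of glucose differences. Every interval spans 0, and the largest difference is that of PSMD3 with glucose, at 0.12.

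The genes around the proteasome were read from 8 further lists. Of 54 genes tested in them, 18 rose with glucose (33.3%) and 21 fell (38.9%), averaged over siRNAs, where 29.5% of all genes rose and 26.2% fell. The counts of each list below stand against these same shares, and no list was tested as a set. Of the 54 genes, limma called none for SRC-1 siRNA or the interaction (of 216 such tests, 1 reached an unadjusted p under 0.05). Among the receptors and deubiquitinases of the 19S particle 3 of 4 rose, with a median of 0.23: USP14 by 0.29 and UCHL5 by 0.32, both deubiquitinases that bind the particle, and SEM1, a small lid subunit, by 0.16. The ubiquitin receptor ADRM1 stood at -0.11 and was not called. USP14 read 11.94, 12.02, 12.07 and 12.00 with glucose, against 11.68, 11.74, 11.72 and 11.73 without. UCHL5 read 9.74, 9.87, 9.83 and 9.85 with glucose, against 9.47, 9.57, 9.51 and 9.48 without, so the groups were separated in both genes.

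Of 9 genes for assembly factors and proteasome-binding proteins, 3 rose and 2 fell, with a median of -0.07. POMP and PSMG2, chaperones of core assembly, rose by 0.23 and 0.19. ECPAS, a scaffold that binds the whole particle, fell by 0.56, and AKIRIN2, needed for nuclear import of proteasomes, fell by 0.16. ECPAS read 10.05, 9.83, 9.74 and 9.89 with glucose, against 10.37, 10.49, 10.39 and 10.51 without, a gap wider than that of most subunits.

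The immunoproteasome subunits, which replace the catalytic beta subunits after interferon, split. PSMB9 read 7.75, 7.88, 8.06 and 7.87 with glucose, against 7.60, 7.32, 7.46 and 7.44 without, and rose by 0.44. PSMB10 read 8.54, 8.60, 8.47 and 8.57 with glucose, against 9.01, 8.87, 8.96 and 8.94 without, and fell by 0.40. PSMB8 was not called, at -0.10. The median of the 3 tested was -0.10.

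Of 7 genes that control transcription through NFE2L1 and NFE2L2, 5 fell with glucose (against 26.2% of all genes), 1 rose and 1 was not called, with a median of -0.38. NFE2L1 read 9.67, 9.66, 9.65 and 9.74 with glucose, against 10.49, 10.40, 10.43 and 10.37 without, and was 1.68-fold lower (log2 difference -0.75 ± 0.05 SE, adjusted p = 4.04e-06). All 4 NFE2L1 values with glucose lay below all 4 without. NGLY1, the glycanase that processes the NFE2L1 protein, fell by 0.38. MAFF and MAFG, small partners of both factors, fell by 2.26 and 0.42. MAFF read 8.02, 8.09, 7.83 and 7.95 with glucose, against 10.23, 10.20, 10.15 and 10.34 without.

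Among 13 genes for p97 and ER-associated degradation, which extracts misfolded proteins from the endoplasmic reticulum, 2 rose and 9 fell, with a median of -0.38. HERPUD1, a membrane component of that system, read 10.47, 10.52, 10.51 and 10.41 with glucose, against 13.02, 13.00, 12.98 and 12.98 without, 5.73-fold lower. SEL1L, EDEM1 and DERL2, further components of that system, fell by 1.76, 1.26 and 1.23. VCP, which encodes p97 itself, was not called, at -0.10.

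Among 7 ubiquitin shuttle and adaptor genes, 2 rose and 3 fell, with a median of -0.06. ZFAND2A, an arsenite-inducible protein that binds the proteasome, read 9.20, 9.14, 9.20 and 9.20 with glucose, against 11.63, 11.46, 11.37 and 11.66 without, 5.07-fold lower. ZFAND2B and ZFAND5 fell by 0.43 and 0.30, and UBQLN2 rose by 0.32. Of 3 tested genes for ubiquitin and its activating enzymes, UBA1 rose by 0.14, and UBA6 and UBB stood at 0.13 and 0.00 without a call. Among 8 cytosolic peptidases, which cut the peptides that the proteasome releases, 5 rose and 1 fell, with a median of 0.15. NPEPPS, BLMH and THOP1 rose by 0.59, 0.32 and 0.34, and TPP2 fell by 0.71.

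**Figure D5:**
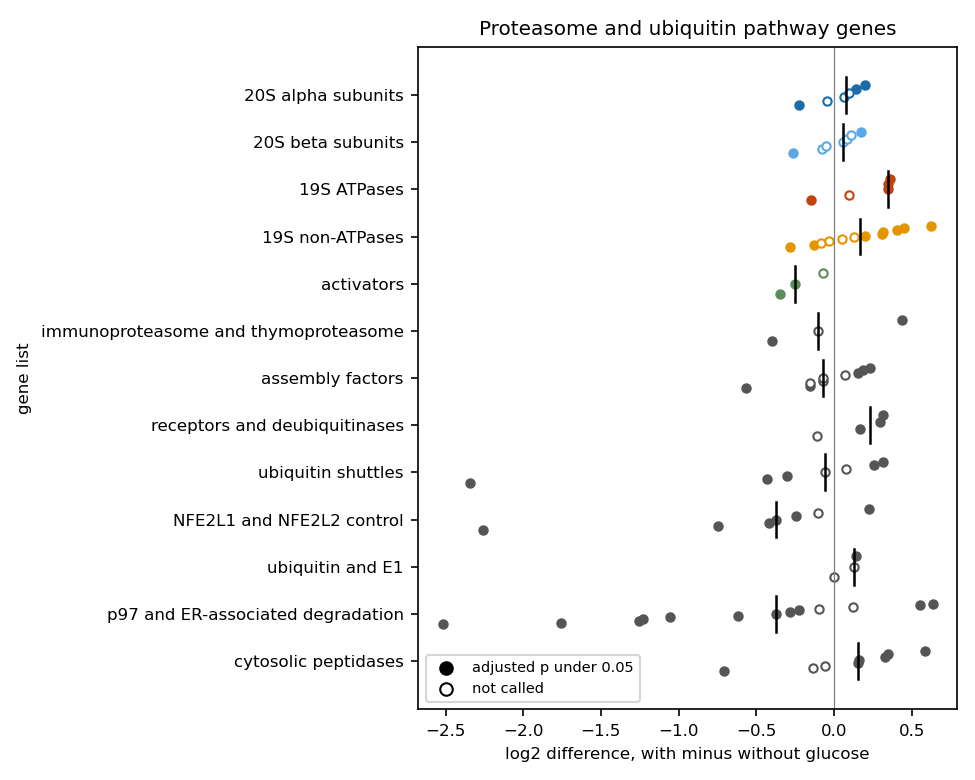
Log2 difference, with minus without glucose and averaged over siRNAs, of each tested gene, for the 5 proteasome groups (coloured) and 8 further lists (grey); filled points were called, open points were not, and the vertical bar is the median of a list. On their brightest probe sets the proteasome genes stay between -0.35 and 0.62, while HERPUD1, ZFAND2A and MAFF lie below -2.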

How the data were processed

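The values were deposited as log2 expression, 1 per probe set and array, and the authors' background correction and normalization are not given in the sources used here. That the base is 2 was inferred from the hybridization spikes, whose steps were 1.91, 1.92 and 2.14. Of 54675 probe sets, 62 controls were left out and 41091 named 1 gene in the platform annotation, against 1801 that named several; 41037 of the single-gene sets matched a current gene ID and 54 kept the annotation's name. Probe sets under the 40th percentile of mean signal (4.80) were left out, and the brightest set stood for a gene.

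limma 3.58.1 in R 4.3.3 fitted group means over all 8 arrays with eBayes, which gave 4 residual and 4.35 prior degrees of freedom. Tests were two-sided at an adjusted p of 0.05. The scripts were tested on simulated data. The members, the lists and the rule for naming genes (every member; array values for the called members of each role group with the largest differences or the rarer sign; up to 4 genes of each other list with the smallest p, plus NFE2L1) were chosen with earlier results of these data known. Genes named beyond that rule (VCP and the position groups) were chosen after their values were seen. Promoter sequences came from RefSeq. Alternatives covered normalization, the filter, the choice of probe set, the variance model, the replicate number as a block and leaving out each array.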

Additional observations from a re-analysis of the deposited data

How the results depend on the processing

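No alternative called a member for SRC-1 siRNA or the interaction. Averaged over siRNAs, 19 members were called for glucose, and the alternatives gave 15 to 25. Leaving out 1 array gave 9 to 16 calls with SRC-1 siRNA, against 15 with all arrays, and 8 to 13 with control siRNA, against 14. The low counts came without the first array of SRC-1 siRNA without glucose (9), of control siRNA with glucose (9) and of control siRNA without glucose (8), each of which leaves 1 array in a group, assumed to vary like the other groups. Averaging all probe sets of each gene turned PSMD9 to 0.051 and PSME3 to 0.0287, since their sets disagree. The replicate numbers are not shown to pair arrays, since their deviations correlated at -0.10 to 0.12 and 1 of 6 correlations passed 0.1; with the replicate block 18 members were called for glucose, averaged, and 15 and 14 with SRC-1 siRNA and control siRNA. A prior that follows mean expression gave the highest counts, 25 of 33 members averaged and 22 with SRC-1 siRNA. Under that prior 57.5% and 47.4% of all genes were called, against 55.7% and 44.7% without it. The standing of the members against all genes thus depended on the variance model. Calls with small differences on the brightest sets, those of PSMA2, PSMB5, PSMC4 and PSMD8, were lost under several settings, and PSMD5 was gained under some. Small changes are hard to see with 2 arrays a group, and their number limits the precision.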
